A study of Mus musculus with 4 samples.

Results

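Ribosomes are built in the nucleolus, where RNA polymerase I (Pol I) transcribes the precursor of the large ribosomal RNAs and a changing set of assembly factors folds, modifies and cuts it while ribosomal proteins bind. Small nucleolar ribonucleoprotein particles (snoRNPs) guide the chemical modification of the RNA, the small subunit processome forms on the first part of the transcript, and a separate set of factors builds the large subunit. Activated T cells are known to enlarge their nucleoli and to make many ribosomes before they divide. The genes described here are those whose symbol marks them as Pol I subunits or as named nucleolar assembly factors, taken by a fixed pattern of symbols from the table of expression values that the authors deposited. The pattern took 78 of the 9546 symbols in that table by their letters alone. It was chosen with earlier results of these data known, and the table holds only genes that passed a minimum read count. By background knowledge they were put in Pol I (9 genes), snoRNP (8), small subunit (35) and large subunit (23), and 3 genes that act in several steps (Ncl, Npm1 and Npm3) were kept apart.

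The 78 genes were compared between sorted Il10-EGFP+ and Il10-EGFP− T cells, with 2 libraries of each. Both populations came from the CD4+ T cells of the spleen. The donors were Tg4 Nr4a3-Tocky Il10-EGFP mice given, 24 h before, 4 mg/kg of [4Y]-MBP under the skin, a peptide of myelin basic protein that the Tg4 transgenic T cell receptor recognizes. Both populations therefore carried the same receptor transgene and had received the same peptide. Both were also sorted as positive for the Timer protein, which is driven by Nr4a3 and marks cells with T cell receptor signalling, and they differed in EGFP, the reporter of Il10. The cells were thus a responding fraction of one transgenic specificity, and unresponsive cells were not analysed here. The methods describe the libraries as biological replicates and add that the authors left out another pair, which stood apart in a principal component analysis. That pair was not analysed here, and the age and sex of these mice are not given in the sources used here.

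The libraries were made by a 3′ end method in which a transcript gives reads from its end, and longer genes therefore do not gather more counts. Total counts per library ran from 644679 to 730330. Il10 itself, which the sort selected, had 0 counts in both Il10-EGFP− libraries, against 29 and 41 for Il10-EGFP+. All 9 markers of T cells that were examined were detected in every library, and their summed level was 3276 to 3495 CPM (counts per 1000000, scaled between libraries) in Il10-EGFP− and 3728 to 3966 CPM in Il10-EGFP+ T cells. Of these, Trac was called higher in Il10-EGFP+ T cells (363 and 344 against 438 and 553 counts). The 10 markers of B cells summed to 151 and 244 CPM in the Il10-EGFP− libraries and to 589 and 603 CPM in the Il10-EGFP+ libraries, with Igkc, Ighm, H2-Aa and Jchain called higher, while Cd79a had at most 2 counts in any library. The 10 markers of myeloid cells summed to 66.5 and 105 against 334 and 137 CPM, with Lyz2 and S100a8 called higher in edgeR and Cd14 and Adgre1 at 0 in every library. DESeq2 called neither Lyz2 nor S100a8 (adjusted p = 0.415 and 0.804), and S100a8 had 1 and 17 against 58 and 28 counts. The 5 markers of CD8 T cells or NK cells summed to 35.3 and 48.1 against 22.2 and 27.4 CPM, with Ncr1 at 0. The part of such transcripts in the differences below was not tested.

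In edgeR, members called lower in Il10-EGFP+ T cells were found at each assembly step, and none was called higher. For Pol I this rested on 1 gene, Polr1g, and DESeq2's Wald test called 0 Pol I members. Of the 78 members, 23 were called lower and 0 were called higher, at an adjusted p under 0.05 in the quasi-likelihood test of edgeR with Benjamini-Hochberg adjustment over all 9608 genes tested. Of all genes tested, 1.74% were called lower and 2.35% higher. The fitted log2 fold change (Il10-EGFP+ over Il10-EGFP−) was below 0 for 74 of the 78 members, against 50% of all genes, and its median was -0.44, against 0.00 over all genes. No member was higher at an unadjusted p under 0.05 in edgeR, and DESeq2's Wald test and limma also called 0 higher. In bulk RNA, fewer cells that express a gene and less of its RNA per cell cannot be told apart, and with 2 libraries per group the p-values measure only the spread between these libraries.

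Summed over the members, the level was 24856 and 25708 CPM in the Il10-EGFP− libraries. It was 17753 and 18886 CPM in the Il10-EGFP+ libraries, or 0.725 of the Il10-EGFP− mean. Nucleolin (Ncl) and nucleophosmin (Npm1), the abundant nucleolar RNA-binding protein and histone chaperone, supplied a large part of that sum. Without Ncl and Npm1 the other 76 members summed to 14917 and 14907 against 10171 and 10354 CPM, so that the libraries within a population lay close together and the populations did not overlap. Both Il10-EGFP+ libraries lay below both Il10-EGFP− libraries for 60 of the 78 members, against 22.3% of all genes tested, and the order was the opposite for 1 member, Tsr3.

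**Figure D1:**
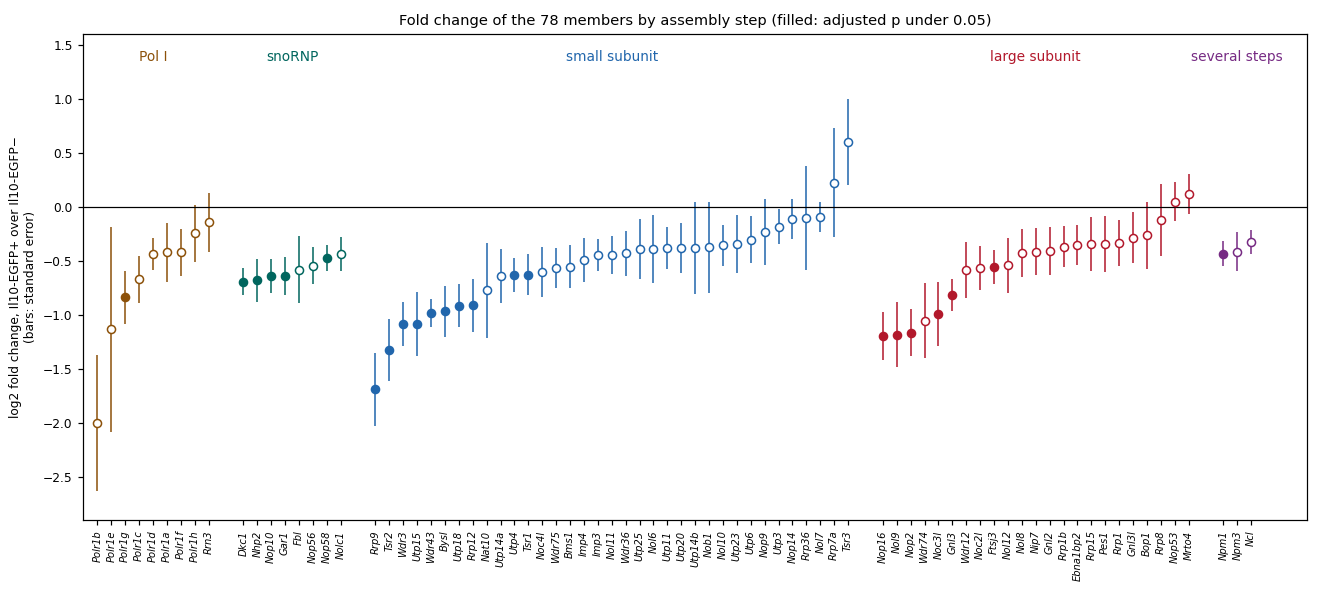
Each point is 1 of the 78 members, with its log2 fold change (Il10-EGFP+ over Il10-EGFP−, 2 libraries each) on the vertical axis and bars of 1 standard error, ordered by value within its assembly step. Filled points passed an adjusted p of 0.05, and 74 points lie below 0, with Tsr3, Rrp7a, Mrto4 and Nop53 above it.

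The members were measured with 4.25 to 4092 mean counts per library, and the shallow ones had wide errors. Among the 54 members with a mean of at least 50 counts, 18 were called lower and the median log2 fold change was -0.46. Among all 2609 genes with that many counts, 4.6% were called lower and the median was -0.02. The 24 members with fewer counts had a median of -0.39, and 5 of them were called lower. DESeq2's Wald test, which called fewer genes in all, called 9 members lower. These were Wdr43, Dkc1, Gnl3, Nop2, Nop16, Wdr3, Rrp9, Nop58 and Npm1. Of all genes tested, DESeq2 called 0.427% lower, but it gave no adjusted p for 4284 of these 9608 genes, against 5 of the 78 members. Genes without an adjusted p could not be called, so that 0.427% understates the share of the genes that could be. With bias-adjusted deviances in edgeR and genes of low counts kept, 8 genes were called in all and Wdr43 was the 1 member among them. With the replicate number as a block in edgeR, 31 members were called lower, Nop56 and Wdr75 among those gained. The number of calls also rested on each library, with 12 members called lower without Il10-EGFP− library 1, 13 without Il10-EGFP− library 2, 14 without Il10-EGFP+ library 1 and 11 without Il10-EGFP+ library 2. Called lower in all 4 of these fits were 9 members, namely Dkc1, Gnl3, Nop16, Nop2, Rrp9, Tsr2, Utp18, Wdr3 and Wdr43.

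**Figure D2:**
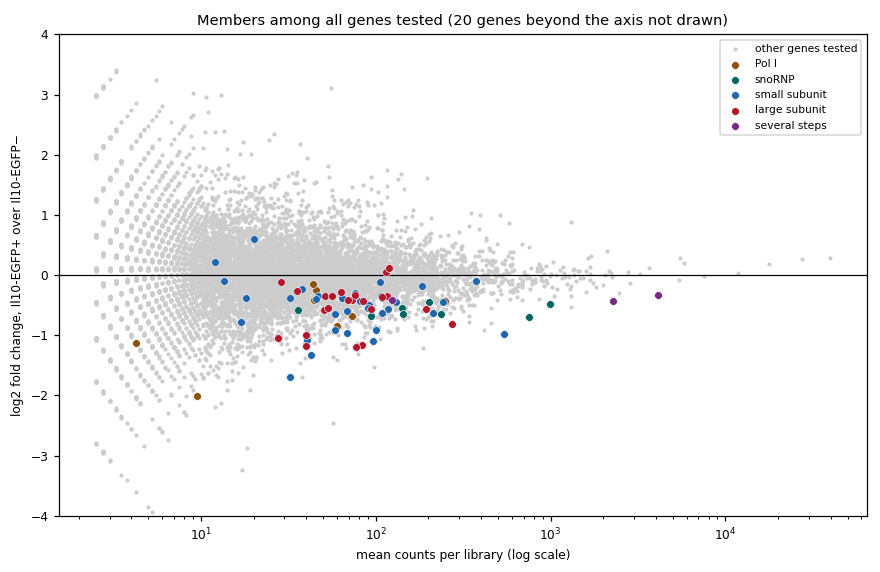
The log2 fold change (Il10-EGFP+ over Il10-EGFP−) of each gene is drawn against its mean counts per library on a log scale, with the 78 members coloured by assembly step over all other genes tested in grey. The members lie mostly below 0 over the whole range of counts, and 20 genes beyond 4 on the vertical axis are not drawn.

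For Pol I, 1 of 9 members was called lower, and all 9 had a fitted value below 0, with a median log2 fold change of -0.43. Polr1g, a subunit that joins Polr1e on the surface of the enzyme, had 111 and 109 CPM in the Il10-EGFP− libraries and 47.5 and 75 CPM in the Il10-EGFP+ libraries. The populations did not overlap, although the Il10-EGFP+ libraries differed from each other. Its log2 fold change was -0.84 (adjusted p = 0.0384 in edgeR, standard error 0.25), and with 1 library left out it was called only without Il10-EGFP+ library 2 (adjusted p = 0.0149, and up to 0.407 without the others). Polr1b, which together with Polr1a forms the catalytic centre, had the most negative value. Its counts were 18 and 13 in Il10-EGFP− against 4 and 3 in Il10-EGFP+ libraries, a log2 fold change of -2.0 (standard error 0.63) that did not pass the test (adjusted p = 0.0590, edgeR). With the replicate number as a block it passed in edgeR (adjusted p = 0.0441), and DESeq2 without the block gave it no adjusted p.

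Polr1c and Polr1d, subunits that Pol I shares with RNA polymerase III, were among the Pol I members with the most counts. Polr1d had 428 and 397 against 307 and 303 CPM, and Polr1c had 130.3 and 129.9 against 87.1 and 76.5 CPM. Neither overlapped between the populations, and neither passed the test, with log2 fold changes of -0.43 and -0.67. The adjusted p was 0.0869 and 0.0709 in edgeR and 0.383 and 0.504 in DESeq2. With the replicate number as a block both passed in edgeR (0.0286 and 0.0391), while DESeq2 with that block called 0 Pol I members. Polr1f, a subunit of the stalk that meets the initiation factor, had 114 and 128 against 90.3 and 90.9 CPM, a log2 fold change of -0.42 that was not called. Rrn3, the factor that brings Pol I to the promoter, lay closest to 0, at -0.14 (standard error 0.27), with overlapping libraries. The catalytic subunit Polr1a and the subunits Polr1e and Polr1h, named here after their values were seen, had log2 fold changes of -0.42, -1.13 and -0.25 and were not called, and Polr1e had 2 to 10 counts per library.

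Of the 8 snoRNP members, 5 were called lower, all 8 had both Il10-EGFP+ libraries below both Il10-EGFP− libraries, and the median log2 fold change was -0.61. The 4 core proteins of the box H/ACA particle, which converts uridines to pseudouridines and also forms part of telomerase, were each called lower. Dkc1 (dyskerin, the pseudouridine synthase; ENSMUSG00000031403, chromosome X of GRCm38, 75095854 to 75109777) had 1345 CPM in each of the Il10-EGFP− libraries and 875 and 792 CPM in the Il10-EGFP+ libraries. The Il10-EGFP− values were thus nearly equal and far above the others. Its log2 fold change was -0.69 (adjusted p = 0.000207 in edgeR, standard error 0.12).

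The partners of Dkc1 moved by like amounts. Nop10 had 474 and 356 against 299 and 235 CPM, and its log2 fold change was -0.64. Gar1 had 261 and 242 against 154 and 169 CPM, a log2 fold change of -0.64. Nhp2 had 175 and 159 against 108 and 101 CPM, a log2 fold change of -0.68. In none of these did the populations overlap, and the adjusted p was 0.00991 for Nop10, 0.0214 for Gar1 and 0.0365 for Nhp2 (edgeR). Dkc1 was called whichever library was left out (adjusted p up to 0.0209, edgeR). The largest such adjusted p was 0.301 for Nop10, 0.167 for Gar1 and 0.234 for Nhp2. Of the 4 box H/ACA proteins, 1 was called without Il10-EGFP− library 1, 3 without Il10-EGFP− library 2, 2 without Il10-EGFP+ library 1 and 1 without Il10-EGFP+ library 2. Naf1, an assembly factor of the same particle that the pattern did not take, had 90 and 78 against 47 and 39 counts and was also called lower (log2 fold change -0.86, adjusted p = 0.0244, edgeR).

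The core proteins of the box C/D particle, which guides methylation of ribosomal RNA, gave 1 call in 3. Nop58 (ENSMUSG00000026020, chromosome 1, 59684971 to 59719044) had 1547 and 1780 CPM in the Il10-EGFP− libraries and 1089 and 1308 CPM in the Il10-EGFP+ libraries, which did not overlap. Its log2 fold change was -0.47 (adjusted p = 0.0161 in edgeR, standard error 0.12), and it was not called without Il10-EGFP− library 2 or without Il10-EGFP+ library 1 (adjusted p up to 0.361). Its partner Nop56 and the methyltransferase fibrillarin (Fbl), named after their values were seen, had log2 fold changes of -0.54 and -0.58 with no overlap and were not called (adjusted p = 0.0614 and 0.375, edgeR). Fbl was measured with 19 to 48 counts per library. Nolc1, a chaperone of both kinds of snoRNP, had 357 and 318 against 246 and 252 CPM. Its log2 fold change of -0.44 was not called (adjusted p = 0.103 in edgeR and 0.475 in DESeq2). With the replicate number as a block the adjusted p in edgeR was 0.0435.

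For the small subunit, 10 of 35 members were called lower, 33 had a fitted value below 0, and the median log2 fold change was -0.44. The members called belonged to early and late stages. Wdr43 (ENSMUSG00000041057, chromosome 17, 71615895 to 71659031), Utp4 and Utp15 are subunits of the complex that binds the nascent transcript first. Wdr43 had 1045 and 1021 CPM in the Il10-EGFP− libraries and 543 and 502 CPM in the Il10-EGFP+ libraries. Its level was thus 49.4% lower in the Il10-EGFP+ population, with a spread within each population far below the difference. The log2 fold change was -0.98 (adjusted p = 5.1e-07 in edgeR, standard error 0.13), the smallest adjusted p among the members, and Wdr43 was called in each of the 17 fits made, alternatives included.

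Utp4 had 377 and 366 against 250.4 and 231 CPM, and Utp15 had 77.4 and 80.2 against 46.0 and 28.9 CPM. Both were separated between the populations and called lower, with log2 fold changes of -0.63 and -1.08. Wdr3 and Utp18, subunits of the next complex to bind, had 195 and 179 against 76.1 and 99.5 CPM and 174 and 203 against 96.7 and 102 CPM. Their log2 fold changes were -1.09 (adjusted p = 0.000310, edgeR) and -0.92 (adjusted p = 0.00212, edgeR). Utp15 and Utp4 lost their call without Il10-EGFP− library 1 and without Il10-EGFP+ library 2, and Utp15 also without Il10-EGFP− library 2 (adjusted p up to 0.315 and 0.120, edgeR), whereas Wdr3 and Utp18 were called in all 4 of these fits.

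Rrp9, the protein that is specific to the U3 snoRNP of the processome, had the most negative value of the small subunit members. Its counts were 54 and 47 in Il10-EGFP− against 12 and 17 in Il10-EGFP+ libraries. The libraries did not overlap, and the log2 fold change was -1.69 (adjusted p = 0.000673 in edgeR, standard error 0.34). Tsr2, a chaperone that delivers a ribosomal protein to the small subunit, had 63 and 61 against 20 and 26 counts, a log2 fold change of -1.33 (adjusted p = 0.00240 in edgeR, standard error 0.29).

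Of the factors that act later, on the particle that leaves the nucleolus, Bysl had 109 and 153 against 76.1 and 57.7 CPM, Rrp12 had 113 and 107 against 58.6 and 57.7 CPM, and Tsr1 had 190.0 and 189.7 against 117 and 128 CPM. All were separated between the populations. Their log2 fold changes were -0.97, -0.91 and -0.63, with adjusted p of 0.00860, 0.0194 and 0.0436 (edgeR). Tsr1 and Rrp12 lost their call with each library left out in turn (adjusted p of 0.120 to 0.245 and 0.0568 to 0.123, edgeR), and Bysl without Il10-EGFP− library 2 and without Il10-EGFP+ library 2 (adjusted p up to 0.226, edgeR).

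Of the small subunit members not called, some lay near 0 or above it, while others, such as Imp3, lay near the median of the step. Nol7, a processome protein, had 403 and 392 against 297 and 398 counts. Its libraries overlapped, the log2 fold change was -0.10 (standard error 0.14), and without Il10-EGFP+ library 1 the value was 0.040. Imp3, a protein that joins U3 RNA to the ribosomal RNA, had 410 and 397 against 292 and 300.1 CPM. Its log2 fold change of -0.45 was not called (adjusted p = 0.0761 in edgeR and 0.353 in DESeq2). With the replicate number as a block the adjusted p in edgeR was 0.0234. Tsr3, an enzyme that modifies the small subunit RNA, had 15 and 18 against 17 and 30 counts and the most positive value, 0.60 (standard error 0.40), which was not called. Rrp7a, a processome protein named after its values were seen, had 12 and 11 against 14 and 11 counts and a log2 fold change of 0.22 (standard error 0.51). Of the 25 small subunit members not called, 10 had overlapping or reversed order between the populations.

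**Figure D3:**
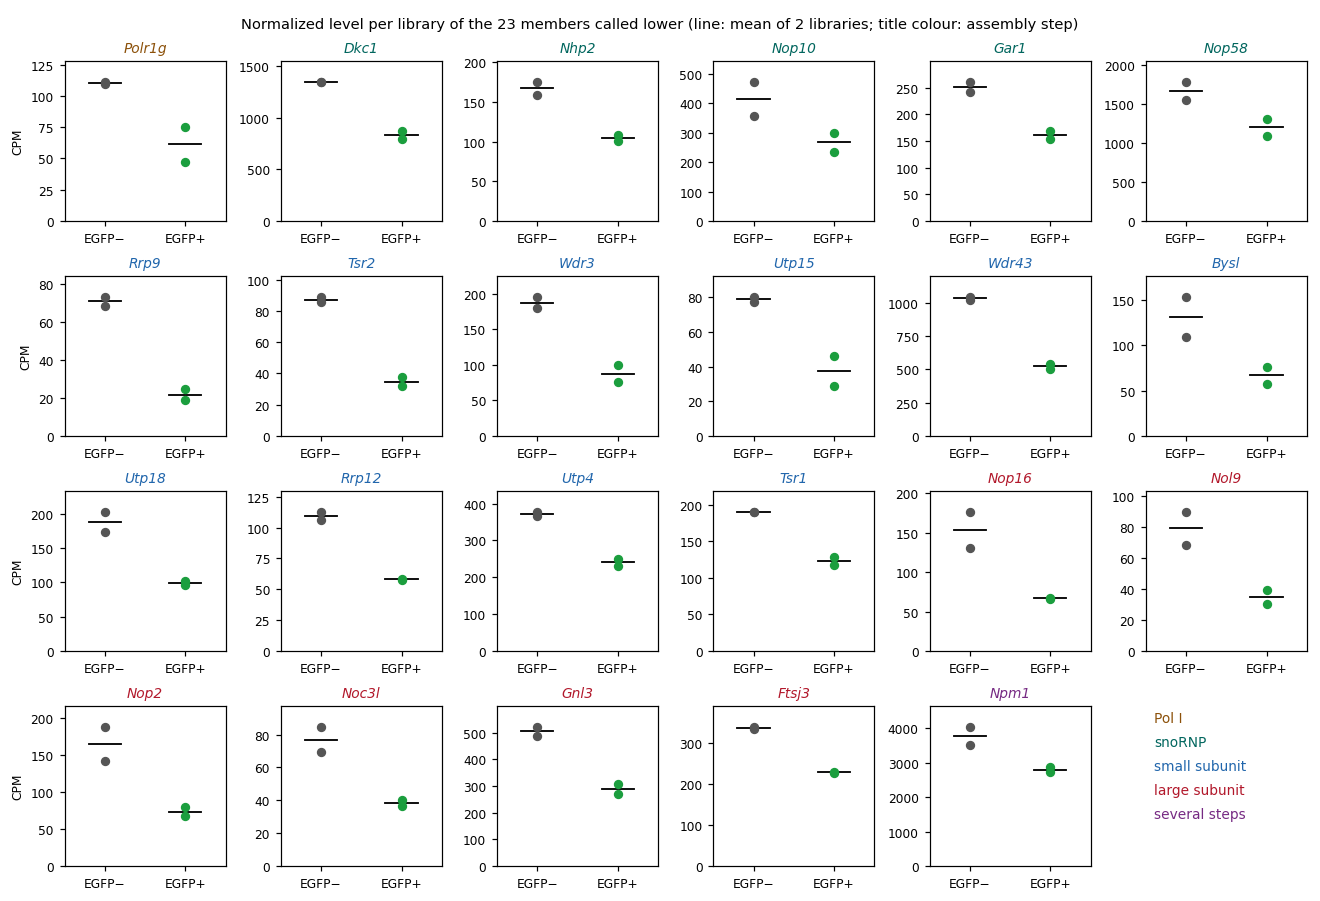
Each panel shows 1 of the 23 members called lower, with its level in CPM (linear axis from 0) in the 2 Il10-EGFP− libraries in grey and the 2 Il10-EGFP+ libraries in green, and a line at the mean of each population. In every panel both Il10-EGFP+ points lie below both Il10-EGFP− points, as for Wdr43 with 1045 and 1021 against 543 and 502 CPM.

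For the large subunit, 6 of 23 members were called lower, 21 had a fitted value below 0, and the median log2 fold change was -0.41. Gnl3 (nucleostemin, a nucleolar GTPase of proliferating cells; ENSMUSG00000042354, chromosome 14, 31012433 to 31019152) had 489 and 521 CPM in the Il10-EGFP− libraries and 306 and 268 CPM in the Il10-EGFP+ libraries. The populations were well apart, and the log2 fold change was -0.82 (adjusted p = 0.000208 in edgeR, standard error 0.15). Nop2, a methyltransferase of the large subunit RNA (ENSMUSG00000038279, chromosome 6, 125131909 to 125144753), had 187 and 142 against 79.2 and 67.8 CPM. Nop16, an assembly factor, had 176 and 131 against 66.6 and 67.8 CPM. Their log2 fold changes were -1.17 and -1.20, with standard errors of 0.22 and an adjusted p of 0.000310 for each (edgeR).

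Nol9, a kinase of RNA ends that acts in the cutting of the spacer, had 66 and 47 against 25 and 21 counts (log2 fold change -1.18, adjusted p = 0.0117, edgeR). Noc3l had 51 and 58 against 23 and 28 counts (log2 fold change -0.99, adjusted p = 0.0383, edgeR). Ftsj3, a further RNA methyltransferase, had 338 and 333 against 227 and 229 CPM (log2 fold change -0.56, adjusted p = 0.0282, edgeR). None of them overlapped between the populations. Ftsj3 and Noc3l lost their call with each library left out in turn (adjusted p of 0.0925 to 0.151 and 0.0549 to 0.248, edgeR), and Nol9 without Il10-EGFP− library 1 and without Il10-EGFP+ library 2 (adjusted p up to 0.169, edgeR). The end of the Ftsj3 transcript shares runs of 50 bases with 267 other genes, and reads from such runs may not have been counted for Ftsj3. The same limit holds for Noc3l, with 18 other genes, and for the small subunit member Rrp9, with 37. Such shared runs were found for 6 of the 23 members called lower and for 25 of all 78.

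Large subunit members also lay above 0. Mrto4, which helps to place the ribosomal stalk, had 152 and 179 against 155 and 203 CPM. Its log2 fold change was 0.12 (standard error 0.19), and without Il10-EGFP+ library 2 it was -0.092. Nop53, named after its values were seen, had 118 and 114 against 104 and 120 counts and a value of 0.05 (standard error 0.18). The 3 proteins of the PeBoW complex, which acts in the processing of the large subunit RNA and was also chosen after the values were seen, were not called, with log2 fold changes of -0.34 for Pes1, -0.26 for Bop1 and -0.58 for Wdr12.

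Of the 3 members that act in several steps, Npm1 was called lower. It had 3510 and 4034 CPM in the Il10-EGFP− libraries and 2724 and 2864 CPM in the Il10-EGFP+ libraries. These did not overlap, and the log2 fold change was -0.43 (adjusted p = 0.0163 in edgeR, standard error 0.11). The call was lost without Il10-EGFP− library 2, without Il10-EGFP+ library 1 and without Il10-EGFP+ library 2 (adjusted p up to 0.252, edgeR). The end of Npm1 shares sequence with 6 processed pseudogenes, of which Gm14681 had the most counts, 30 over the 4 libraries. Ncl had 6428 and 6767 against 4858 and 5668 CPM, a log2 fold change of -0.33 (standard error 0.11). It did not pass the test (adjusted p = 0.0845 in edgeR and 0.0891 in DESeq2). With the replicate number as a block the adjusted p in edgeR was 0.00201. Npm3, a relative of Npm1, had 212 and 196 against 163 and 143 CPM and a log2 fold change of -0.42, and was not called.

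The rlog values that the authors deposited, which are counts on a log2 scale with the differences of shallow genes shrunk towards 0, were also compared. The mean rlog was lower in Il10-EGFP+ T cells for 74 of the 78, with a median difference of -0.19, and limma on these values called 17 members lower. Those 17 held 15 of the 23 called by edgeR, together with Imp3 and Nop56. The median deviation of the members from their mean over the libraries was 0.27 and 0.25 for Il10-EGFP− against -0.26 and -0.27 for Il10-EGFP+ libraries on the scale of log2(CPM + 1), so that the libraries of a population lay close together.

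**Figure D4:**
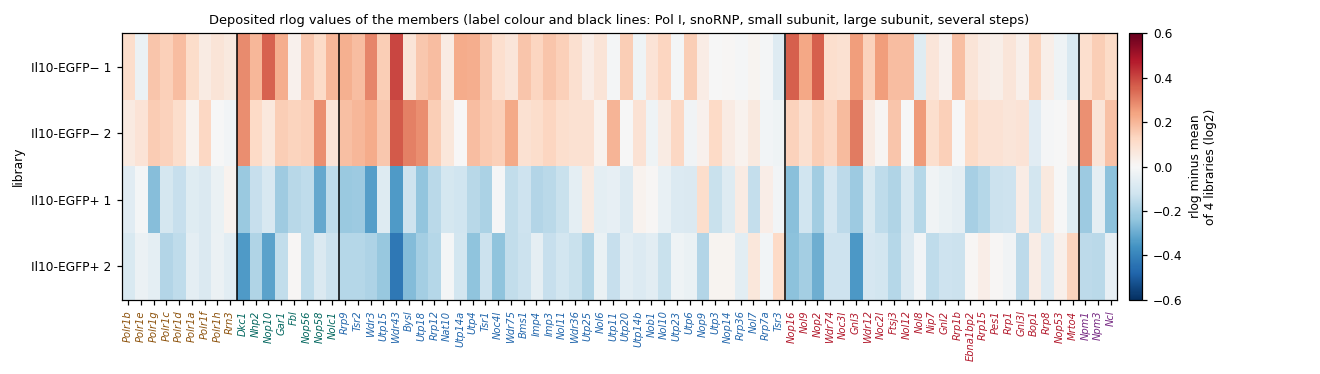
Rows are the 4 libraries and columns the 78 members in the order of the plot of fold changes, grouped by step. Colour gives the deposited rlog value minus the mean of the member over the libraries, from blue for lower to red for higher, and most columns are red in both Il10-EGFP− rows and blue in both Il10-EGFP+ rows, with Wdr43, Nop2 and Gnl3 among the strongest.

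The promoters of members were searched for CACGTG, the canonical E-box, which reads the same on both strands and which the transcription factors Myc, Max and their relatives are known to bind. Of the 78 members, 65 had a window from 250 bases before to 50 bases after the start of transcription in RefSeq for GRCm38.p6. The motif was present for 15 of these 65 genes (23.1%), for 7 of the 21 called lower (33.3%) and for 8 of the 44 not called (18.2%). It was present for 12.5% of the 7374 tested genes with a window and for 8.09% of the 27025 genes in the whole table. These are matches of letters, given as a description with no test. The members called lower with the motif were Nop2, Utp18, Wdr43, Utp4, Tsr1, Tsr2 and Polr1g, and the stretches around the motif are shown for the first 6 because they carry the letters shared by members of both subunits. Capitals mark the motif, and each sequence is written in the direction of the gene.
Nop2, chr6:125131783-125131882, plus strand: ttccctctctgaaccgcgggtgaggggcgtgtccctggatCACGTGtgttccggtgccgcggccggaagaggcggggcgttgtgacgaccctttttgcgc
Utp18, chr11:93885767-93885866, minus strand: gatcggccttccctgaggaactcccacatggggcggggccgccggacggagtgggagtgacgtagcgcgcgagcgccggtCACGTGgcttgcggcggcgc
Wdr43, chr17:71616220-71616249, plus strand: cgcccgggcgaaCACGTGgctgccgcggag
Utp4, chr8:106893643-106893672, plus strand: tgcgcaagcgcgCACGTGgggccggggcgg
Tsr1, chr11:74898092-74898121, plus strand: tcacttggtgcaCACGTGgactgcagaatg
Tsr2, chrX:151096511-151096540, minus strand: ctgcctgggagcCACGTGatctaaacggat
The motif began 60 bases before the annotated start in Nop2 and 20 before it in Utp18. In the other 4 it lay just inside the transcript, with its first base at position 18 in Wdr43, 16 in Utp4, 25 in Tsr1 and 16 in Tsr2, counted from 1 at the start.

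From a list of 14 tested genes that act on ribosome production or sense it, 3 were called lower and 2 higher in edgeR, and 2 (Max and Ubtf) were called lower and 0 higher in DESeq2. Myc, which drives many genes of ribosome assembly, had 27 and 19 against 7 and 7 counts (log2 fold change -1.59, adjusted p = 0.0465 in edgeR, standard error 0.49). Its partner Max had 229 and 264 against 123 and 154 counts (log2 fold change -0.73, adjusted p = 0.00286, edgeR). Ubtf, the factor that opens the ribosomal DNA for Pol I, had 96 in each Il10-EGFP− library against 39 and 38 counts (log2 fold change -1.21, adjusted p = 0.000466, edgeR). Mxd1 and Mxd3, which compete with Myc for Max, were higher, with 26 and 23 against 42 and 54 counts and 16 and 17 against 39 and 32 counts. Their log2 fold changes were 1.07 and 1.21 (adjusted p = 0.0282 and 0.0384, edgeR), and in DESeq2 neither was called (0.341 and 0.391). The other 9 genes, among them those of mTORC1 (Mtor, Rptor and Rheb), were not called, and Mycn had 0 counts in every library. Ubtf was called whichever library was left out (adjusted p up to 0.0114, edgeR), and Max lost its call without Il10-EGFP− library 2 and without Il10-EGFP+ library 1 (adjusted p up to 0.0986, edgeR). Myc, Mxd1 and Mxd3 lost theirs with each library left out in turn, with adjusted p of 0.0710 to 0.303, 0.0510 to 0.235 and 0.0578 to 0.320 (edgeR).

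Of 71 further genes of ribosome assembly or Pol I transcription that the pattern did not take, 15 were called lower and 0 higher, with a median log2 fold change of -0.49. No gene of the list was higher at an unadjusted p under 0.05 or in DESeq2, and DESeq2 called 5 lower. Besides Naf1 and Ubtf, the called genes included Ddx21, an RNA helicase of the nucleolus, with 1575 and 1624 against 997 and 1065 counts (log2 fold change -0.53, adjusted p = 0.00276, edgeR). Rrs1 and Rpf2, which bring the smallest ribosomal RNA into the large subunit, had log2 fold changes of -0.91 and -0.66. Other called genes of the large subunit were Nifk, Rsl1d1, Rsl24d1, Ppan and Surf6, at -0.93, -0.76, -0.85, -1.30 and -1.15. Krr1, Rcl1 and Pdcd11, factors of the small subunit, were called at -1.0, -0.87 and -0.73, Mybbp1a at -0.56, and Taf1d, a subunit of the Pol I promoter factor, at -0.53. Of the 15, those called whichever library was left out were Rcl1, Rsl1d1 and Ubtf, and Naf1 was called only without Il10-EGFP+ library 1 (adjusted p = 0.0231, and up to 0.274 without the others, edgeR).

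The ribosomal proteins themselves, which the assembly factors act on, were set beside the members as a description. Of 81 cytosolic ribosomal protein genes, 0 were called lower by edgeR, 0 were lower at an unadjusted p under 0.05, and 0 were called lower by DESeq2. Their median log2 fold change was 0.01, and 1 gene, Rps4x, was called higher (63 and 49 against 81 and 126 counts, log2 fold change 0.98). Of 74 mitochondrial ribosomal protein genes, 2 were called lower (2.7%, against 1.74% of all genes tested). These were Mrpl16 (-1.15) and Mrpl12 (-0.73), and the median of the family was -0.14. Of 13 RNA polymerase II subunits, 1 was called lower, Polr2e (-0.68), which is also part of Pol I and Pol III. The median of the 13 was -0.31, against -0.43 for the Pol I members. Of the 13, 11 had a fitted value below 0, and 5 were lower at an unadjusted p under 0.05 in edgeR. Of 10 Pol III subunits 0 were called, with a median of -0.33 and 7 fitted below 0. In that family 3 were lower at an unadjusted p under 0.05 in edgeR and 0 were called by DESeq2. Rps4x, Mrpl16, Mrpl12 and Polr2e were named after their values were seen, and DESeq2 called none of them. With a library left out the adjusted p in edgeR ran up to 0.183 for Rps4x and 0.152 for Polr2e, both without Il10-EGFP+ library 2, and up to 0.0625 for Mrpl16 without Il10-EGFP− library 1. For Mrpl12 it ran up to 0.273, with the call lost without Il10-EGFP− library 2 and without Il10-EGFP+ library 2. The difference between these families and the members was not tested.

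**Figure D5:**
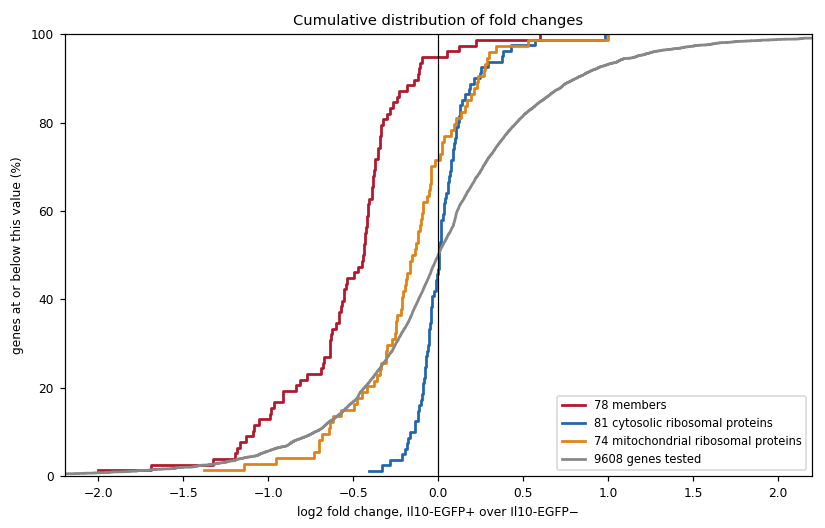
The curves give the percentage of genes at or below each log2 fold change (Il10-EGFP+ over Il10-EGFP−) for the 78 members, 81 cytosolic and 74 mitochondrial ribosomal protein genes and all 9608 genes tested. The curve of the members lies to the left of the others over most of its range, with a median of -0.44 against 0.01, -0.14 and 0.00.

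Several members share their locus with other genes. By the annotation, 8 of the 78 (10.3%) hold a small nucleolar RNA gene on the same strand within their bounds, against 2.37% of the other 9520 tested genes. These were Nop56, Nop58, Dkc1, Wdr43, Tsr1, Nop53, Gnl3 and Ncl, of which 5 were called lower. Exons of 9 of the 23 members called lower, and of 19 of all 78 members, overlap a gene on the other strand that also had counts. The members called thus hold a larger share of such overlaps than all members do. Whether the counting kept the strands apart is not given in the sources used here. Among these partners, Pbrm1 beside Gnl3 had 241 and 189 against 211 and 227 counts, and Ccnd3 beside Bysl had 237 and 167 against 240 and 255 counts. Mpp1 beside Dkc1 had 22 and 15 against 9 and 27 counts, and Rmnd5b beside Nhp2 had 18 and 12 against 9 and 22. Other partners were lower in both Il10-EGFP+ libraries. Gdap2 beside Wdr3 had 21 and 20 against 14 and 14 counts, Parp3 beside Rrp9 had 16 and 20 against 13 and 6, and Ercc1 beside Polr1g had 13 and 12 against 6 and 5. The partners of Tsr1 and Tsr2 (Srr and Fgd1) had 7 and 1 counts over the 4 libraries.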

How the data were processed

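Libraries of 3′ ends (QuantSeq 3′ mRNA FWD) were made from RNA of sorted Il10-EGFP− and Il10-EGFP+ T cells, with 2 libraries per group. The methods and the labels name different RNA extraction kits (Picopure and PureLink). The authors deposited raw counts per gene and library, made on the BlueBee platform, and a table of rlog values on a log2 scale, made with DESeq2 from genes that passed a minimum read count. The submitters' processing notes name STAR 2.5.2a, HTSeq 0.6.0 and the GRCm38 (mm10) genome. Molecular identifiers served to track PCR duplicates, per the methods and the labels, and the methods add that they served to remove amplification bias. Any collapsing of the deposited counts by these identifiers, the annotation release and the strand setting are not given in the sources used here. No column held values of a sample outside these groups (0 columns).

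The deposited counts were tested here with edgeR 4.0.16 (limma 3.58.1, R 4.3.3) over every gene whose counts summed to at least 10. Scaling was by TMM, the fit was glmQLFit with its default (legacy) settings and no replicate block, and the p-values were adjusted by Benjamini-Hochberg with a threshold of 0.05. CPM are counts per 1000000 after TMM scaling, and standard errors follow from the log2 fold change and its F statistic. The table that gave the symbols lacked 419 of 47643 identifiers. Of the members, 4 were matched through older symbols (Polr1f, Polr1g, Polr1h and Utp25), and rlog values recomputed with DESeq2 1.42.0 equalled the deposited ones for all 78. The pattern also matches Nol3, Nol4, Nol4l and 3 pseudogenes, which the rlog table does not list, with 0 to 2 counts over the libraries. Positions are from the GENCODE annotation of GRCm38.

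The genes named are all members called, the 3 with the highest mean CPM and those with the most positive and most negative log2 fold change in each step, and the called genes of the lists of further assembly factors and of regulators. Other genes are marked as chosen after their values were seen. The members and lists were chosen with earlier results of these data known. The scripts were tested on simulated data. Alternatives were RLE scaling, library size only, other filters, bias-adjusted deviances, DESeq2, limma voom, limma on rlog, the replicate number as a block, each library left out, and, chosen after seeing the data, leaving out the 3 genes with the most counts.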

Additional observations from a re-analysis of the deposited data

How the results depend on the processing

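Depth and number of libraries limit these results, with 644679 to 730330 counts per library and 2 libraries per group, so that members with few counts could not be called unless they differed strongly. The number of members called higher was 0 in all 17 fits. The number called lower was 23 and ran from 23 to 28 with RLE scaling, library size only, no filter, at least 10 counts in every library, bias-adjusted deviances, limma voom or without the 3 genes with the most counts, where all genes called numbered 367 to 428 against 393. It was 9 with DESeq2 (112 of all genes) and 1 with bias-adjusted deviances and no filter (8 genes), while limma on rlog called 197 genes in all. With a library left out it ran from 11 to 14 members and from 201 to 264 genes, and there a lone library was assumed to vary like the other group. The median log2 fold change of the members was -0.44, and it was -0.47 with library size only, -0.43 with at least 10 counts in every library, -0.19 on rlog values, which are shrunk towards 0, and -0.55 to -0.47 with a library left out. With a library left out, the value of Nol7 (-0.10) ran from -0.25 to 0.040 (without Il10-EGFP+ library 1), and that of Mrto4 (0.12) from -0.092 (without Il10-EGFP+ library 2) to 0.30. The methods speak of replicate pairs, but the sources used here do not say whether same-numbered libraries came from the same mouse. The deviations of same-numbered libraries from their group means correlated with r = 0.035 over 4965 genes, which does not settle it. With the replicate number as a block, edgeR called 31 members and 560 genes, with Imp3, Ncl, Nolc1, Nop56, Polr1b, Polr1c, Polr1d and Wdr75 gained and 0 lost, and DESeq2 called 5 members and 39 genes. Of the members, Wdr43 was called in all 17 fits, and Dkc1 and Gnl3 in 16. The cause of these differences was not tested.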

Other observations

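Other gene families of protein synthesis and folding, chosen by symbol after their values were seen and given as a description with no test, had medians between those of the assembly factors and 0. Of 51 translation initiation factors, 3 were called lower and 0 higher (edgeR, adjusted p), with a median log2 fold change of -0.18. These were Eif4e, the cap-binding protein, with 175 and 211 counts in the Il10-EGFP− and 97 and 127 in the Il10-EGFP+ libraries, Eif4b with 143 and 141 against 73 and 88, and Eif3j1 with 119 and 146 against 52 and 79. No initiation factor was called by DESeq2, and with a library left out the adjusted p ran up to 0.260, 0.132 and 0.109 in edgeR.

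Of 35 aminoacyl-tRNA synthetases, which charge tRNAs with amino acids, 4 were called lower (Farsa, Kars, Yars2 and Mars2) and 1 higher, with a median of -0.22. DESeq2 called Farsa lower and none higher. Kars and Mars2 lost their call in edgeR with each library left out in turn (adjusted p up to 0.181 and 0.190), Farsa lost it in all of these fits but the one without Il10-EGFP− library 2 (up to 0.0786), and Yars2 in all but the one without Il10-EGFP+ library 1 (up to 0.332). The gene called higher was Lars2, the mitochondrial leucyl enzyme, with 335 and 514 against 641 and 808 counts (log2 fold change 0.86, adjusted p = 7.73e-05, edgeR), and it was called whichever library was left out, although DESeq2 did not call it (adjusted p = 0.306). Mars2 and Yars2, which are also mitochondrial enzymes, lay on the other side, with log2 fold changes of -1.36 and -0.96. Exosc7 was the 1 called of 9 subunits of the RNA exosome, which trims precursors of ribosomal RNA, with 288 and 217 against 131 and 123 counts (log2 fold change -0.88, adjusted p = 0.000303, edgeR), and it was also called by DESeq2 and with each library left out. All 8 subunits of the CCT chaperonin had a fitted value below 0, and Cct3 was called lower (-0.55). Of 38 proteasome subunits 1, Psmd6, was called lower (-0.66), with a median of -0.07. Cct3 and Psmd6 were not called by DESeq2 and lost their call in edgeR with each library left out in turn (adjusted p of 0.0568 to 0.116 and 0.0934 to 0.242). Of 15 subunits of the mitochondrial ATP synthase 0 were called, with 1 lower and 1 higher at an unadjusted p under 0.05 in edgeR and 0 called by DESeq2, and a median of -0.02.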
